A study of Schizosaccharomyces pombe with 9 samples.

Results

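The ribosome biogenesis factors of the fission yeast Schizosaccharomyces pombe described here are 69 of the 5212 genes in the deposited expression tables. They were chosen by name, as the genes with a numbered symbol beginning utp, rrp, nop, noc, nog, rrs, brx, nsa, enp, dbp, bms, pno, tsr, rix, ipi or kri. The pattern matched 72 symbols, and rrp1, rrp2 and dbp5 were left out. The naming rule used no expression value, but it was set with earlier results of these data known. By role, 32 members act on the small ribosomal subunit, 23 on the large subunit, 3 are core proteins of small nucleolar ribonucleoprotein particles (snoRNPs), 8 are subunits of the RNA exosome, and 3 act on both subunits or have no single assignment.

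Ribosomes are assembled in the nucleolus, where RNA polymerase I makes a long precursor rRNA. The small-subunit processome, a large particle built on that precursor from the UTP-A, UTP-B and U3 snoRNP complexes and many single proteins, forms first and is cleaved away, after which large-subunit particles mature with the help of RNA helicases, GTPases and AAA ATPases. Box C/D and box H/ACA snoRNPs methylate and pseudouridylate the rRNA, and the exosome trims and degrades precursor ends and spacers. In yeasts the genes for these factors are known to be transcribed together with ribosomal protein genes in response to growth conditions. Most of the roles given below were established in budding yeast.

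RNA was sequenced from whole cells of 3 genotypes with 3 libraries each, after selection with oligo(dT), so that mRNAs of the factors and not mature rRNA were measured. WT is the wild type. The E112K group carries htb1-E112K, a glutamate-to-lysine substitution in the only histone H2B gene, and the E112K clr6-1 group carries htb1-E112K plus clr6-1, a mutant form of clr6, which encodes a histone deacetylase of class I, and is called the double mutant below. A clr6-1 strain without the substitution was not analysed here, so that clr6-1 was seen only on top of E112K. The labels do not say whether replicates came from separate cultures, and p-values therefore measure only the spread between these libraries, which may be technical. They also give no strain background, growth temperature or growth phase.

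The 9 libraries held 16469576 to 20013351 counts. All 69 members were among the 5119 genes tested, with 302 to 17093 counts per member and library. Levels are given as CPM, a count per library of common size, scaled by TMM factors, which compare libraries, or as the authors' FPKM, which is per transcript length and allows genes to be compared. Of all counts, WT libraries held 1.02 to 1.05% in the members, E112K libraries 1.14 to 1.246% and double-mutant libraries 1.206 to 1.246%. Library 1 of E112K was the lowest of its group for 57 of 69 members, and library 3 of the double mutant for 43, so key counts are also given without library 1 of E112K. Transcripts of htb1 stood at 1669 ± 43.0 CPM in WT, 5131 ± 127 in E112K and 5435 ± 119 in the double mutant (SD, n = 3), and those of clr6 at 142 ± 7.08, 87.1 ± 1.77 and 119 ± 1.47. The marker gene ura4 and the mating-type gene mat1-Mc were at or near 0 in WT and E112K and stood at 145 ± 1.93 and 75.1 ± 3.3 CPM in the double mutant, and the part of these strain differences in the results was not tested.

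The DNA before 4 members is shown because these genes had the largest rises or falls among members whose upstream region overlaps no coding transcript. That of rpl803 is shown too. It was the ribosomal protein gene that fell most in E112K among those with a HomolD box in the bases shown and no coding transcript there. Only ribosomal protein genes that passed the test and whose groups did not overlap were ranked. Each sequence is the 150 bases before the annotated transcript start in the RefSeq annotation of ASM294v3, found by gene identifier because no source used here names the authors' build. Capitals mark the word AAATTT, the HomolD core CAGTCAC or the HomolE box CCCTACCCT, with the whole HomolD box CAGTCACA where it is complete. The utp14 window (chrI:1534160-1534309, minus strand) held AAATTT 111 bases before the start. That of nop10 (chrI:1635505-1635654, minus strand) held the HomolD core 84 bases before the start. Neither the utp20 window (chrII:4120748-4120897, minus strand) nor the dbp3 window (chrII:3338570-3338719, plus strand) held any of these words. In rpl803 (chrII:601102-601251, plus strand) the HomolE box began 70 and the HomolD box 50 bases before the start.
utp14: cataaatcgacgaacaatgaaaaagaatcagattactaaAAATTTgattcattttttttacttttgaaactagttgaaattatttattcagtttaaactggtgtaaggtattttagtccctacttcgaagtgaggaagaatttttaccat
nop10: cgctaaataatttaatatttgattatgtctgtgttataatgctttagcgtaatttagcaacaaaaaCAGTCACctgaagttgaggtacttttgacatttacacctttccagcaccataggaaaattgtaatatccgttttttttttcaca
utp20: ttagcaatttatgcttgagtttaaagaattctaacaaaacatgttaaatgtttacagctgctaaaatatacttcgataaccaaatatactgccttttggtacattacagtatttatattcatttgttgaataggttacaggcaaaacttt
dbp3: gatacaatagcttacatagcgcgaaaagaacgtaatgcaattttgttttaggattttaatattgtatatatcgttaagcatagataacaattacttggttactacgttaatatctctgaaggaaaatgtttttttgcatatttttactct
rpl803: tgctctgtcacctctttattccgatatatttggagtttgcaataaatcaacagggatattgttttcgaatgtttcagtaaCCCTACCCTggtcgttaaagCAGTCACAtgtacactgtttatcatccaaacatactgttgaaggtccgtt

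Per transcript length, the members spanned a 33.6-fold range in WT, from utp20 at 12.3 ± 0.487 FPKM to nop56 at 413 ± 5.70 (SD, n = 3). Their median was 57.9 FPKM, beside 47.9 for all tested genes. The snoRNP core proteins had the highest class median, 384 FPKM, from nop10 at 197 to nop56, while dbp2, of no single assignment, stood at 309. The medians of the other role classes lay between 47.0 and 72.8 FPKM. The most abundant member of the large-subunit class was dbp3 in WT, at 164 ± 5.76 FPKM, but nog1 in E112K (249 ± 15.3) and the double mutant (237 ± 3.97). Over the members the range narrowed to 26.0-fold in E112K and 19.9-fold in the double mutant, and the median rose to 68.5 and 70.7 FPKM. Part of that narrowing is visible at the lower end, where utp20 stood at 17.0 ± 1.15 FPKM in E112K and 39.5 ± 1.45 in the double mutant, dbp10 moved from 16.7 ± 1.16 to 42.9 ± 3.41 and 38.8 ± 1.62, and rix7 from 17.3 ± 0.283 to 25.4 ± 1.38 and 30.8 ± 1.94. Of the 12 members lowest in WT, 9 were called higher and 1 lower in E112K against WT, and of the 12 highest, 6 were higher and 3 lower. Over all tested genes, of any level, 37.6% were called higher and 38.9% lower, and genes of matching level were not counted. The splits of members by level share the WT libraries with the comparison and are descriptions.

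**Figure D1:**
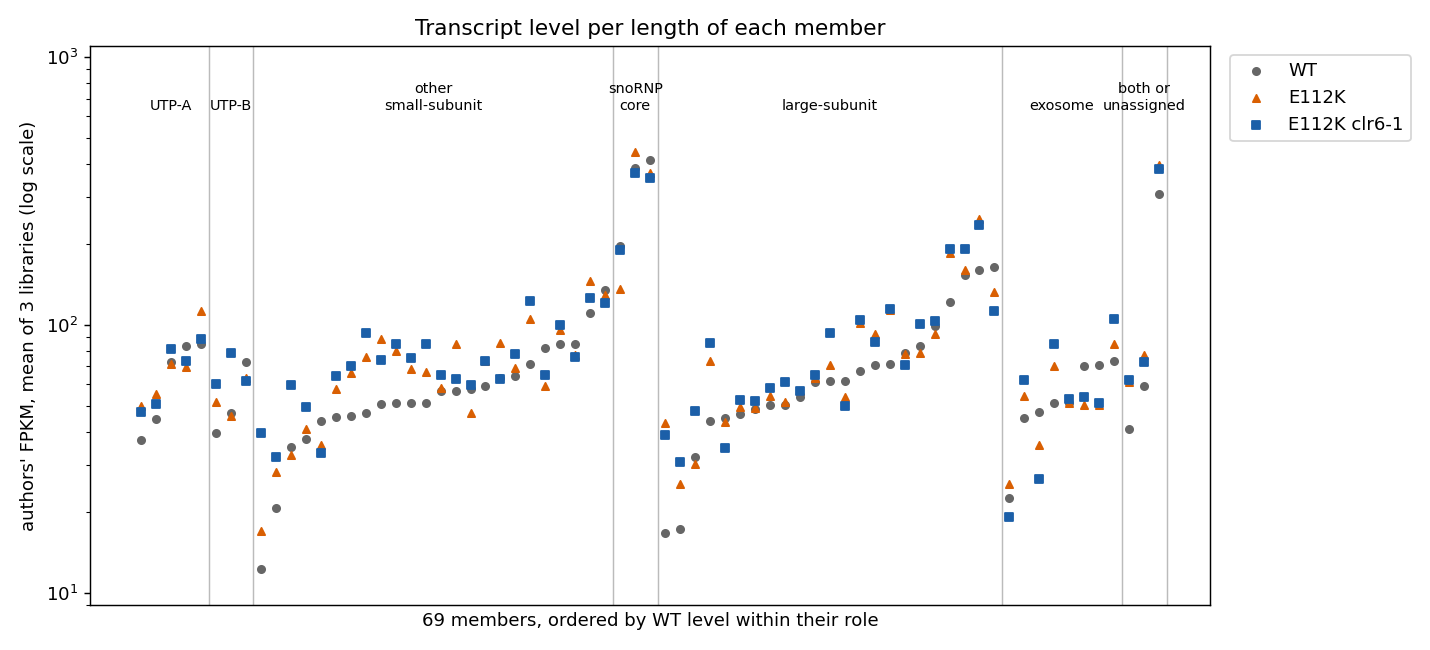
Mean FPKM over 3 libraries (log axis) of each of the 69 members in WT (circles), E112K (triangles) and the double mutant (squares), grouped by role and ordered by WT level. In WT nop56 lies highest at 413 FPKM and utp20 lowest at 12.3 FPKM, and most small- and large-subunit factors have their mutant symbols above the WT circle.

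The first comparison asks what the H2B substitution did to the transcripts of these factors. In E112K against WT, 40 of 69 members (58.0%) were higher and 13 (18.8%) lower at an adjusted p under 0.05 in edgeR's quasi-likelihood test, and 16 did not pass. Over all 5119 tested genes 37.6% were called higher and 38.9% lower, so that 76.5% were called in either direction. The median log2 fold change of the members was 0.21, beside -0.01 for all tested genes. For 51 members the 2 groups did not overlap (73.9%), beside 78% of all tested genes. A single member, dbp10, changed by more than 2-fold. Without library 1 of E112K the counts were 42 higher and 11 lower.

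In the double mutant against WT, 47 members (68.1%) were higher, 15 (21.7%) lower and 7 did not pass. Over all tested genes 41.7% were called higher, 42% lower and 83.7% in either direction. The median log2 fold change was 0.30, beside -0.000396 for all tested genes, and the groups did not overlap for 61 members (88.4%), beside 84.8% of all genes. The members past 2-fold were utp20, dbp10 and kri1. In the authors' deposited table, 41 members passed an FDR of 0.05 in E112K (30 higher, 11 lower) and 50 in the double mutant (39 higher, 11 lower). Those also past 2-fold were dbp10 in the former and dbp10 and utp20 in the latter. The share of all genes passing in the authors' test was not counted, so these counts have no background beside them.

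The direct comparison of the double mutant with E112K, which asks what clr6-1 and any other difference of that strain added, called 31 members higher (44.9%), 14 lower (20.3%) and left 24 uncalled. For all tested genes the shares were 40.2% higher, 38.6% lower and 78.8% in either direction. The median log2 fold change was 0.08, beside 0.01 for all tested genes. Groups did not overlap for 46 members (66.7%), beside 80.5% of all genes. Without library 1 of E112K the counts were 28 higher and 20 lower. The 3 comparisons share libraries, so their values are set side by side below and are not counted as separate evidence.

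**Figure D2:**
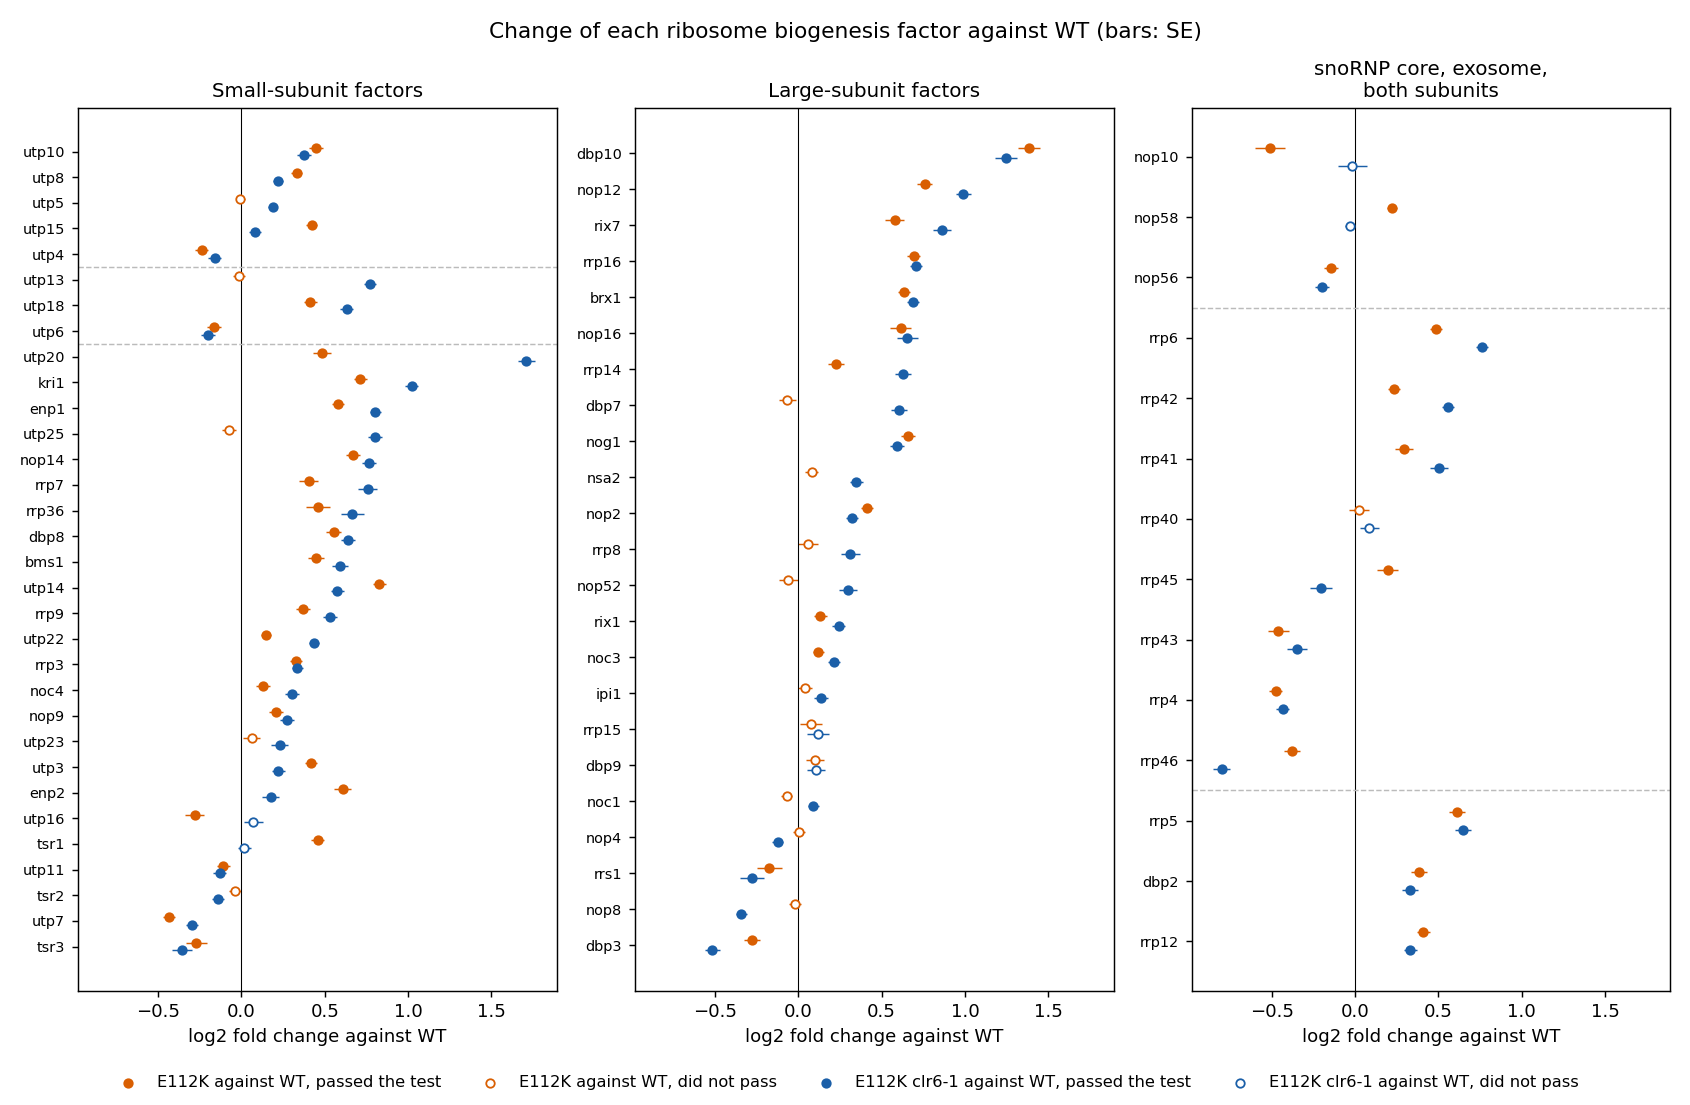
Log2 fold change against WT of each member in E112K (orange) and the double mutant (blue), with the standard error as bars and filled points where the adjusted p was under 0.05. Members are grouped by role, with dashed lines between UTP-A, UTP-B and other small-subunit factors on the left and between snoRNP core, exosome and shared factors on the right, and utp20 reaches 1.71 in the double mutant.

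Among small-subunit factors more genes rose than fell against WT in each mutant strain. In E112K against WT, 21 of 32 were higher (65.6%) and 6 lower (18.8%), beside 37.6% and 38.9% of all tested genes. The median log2 fold change of the class was 0.35. In the double mutant against WT 24 were higher (75%) and 6 lower (18.8%), beside 41.7% and 42%, with a median of 0.32. Between the mutant strains 17 were higher (53.1%) and 7 lower (21.9%) in the double mutant, beside 40.2% and 38.6%, with a median of 0.12. The same shares of all tested genes stand beside the counts of role classes and other lists below. Outside the named members, a list of 22 other small-subunit factors had 13 higher and 6 lower in E112K and 15 higher and 3 lower in the double mutant against WT, and 12 higher and 6 lower between the mutants. The gene of that list with the smallest adjusted p in E112K was rok1, an RNA helicase gene, with a log2 fold change of 0.88 (adjusted p = 5.45e-10). In both comparisons of the double mutant it was ltv1, whose product is a late small-subunit factor, at 0.82 against WT and 0.88 against E112K (adjusted p = 6.18e-11 and 7.48e-11).

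UTP-A, the subcomplex that binds the nascent precursor first, was represented by utp4, utp5, utp8, utp10 and utp15. Of these, 3 were higher and 1 lower in E112K, 4 higher and 1 lower in the double mutant against WT, and 1 higher and 2 lower between the mutants. Transcripts of utp15, which encodes the most abundant of them per length in WT, stood at 157, 157 and 164 CPM in WT, 207, 218 and 215 in E112K and 169, 174 and 162 in the double mutant. The E112K libraries lay above all others and the WT and double-mutant libraries overlapped. The rise in E112K was 1.34-fold (adjusted p = 1.27e-07). In the double mutant utp15 passed the test at an adjusted p of 0.0408 with a log2 fold change of 0.08, a call lost under 7 other settings, among them without library 1 of WT (0.104), library 2 of WT (0.103), library 1 of the double mutant (0.0751) and library 2 of the double mutant (0.151). The WD-repeat gene utp4 was the member of the complex that fell, by 0.24 in E112K and 0.16 in the double mutant.

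UTP-B, which joins the particle with the U3 snoRNP, was represented by utp6, utp13 and utp18. The WD-repeat gene utp13 stood at 115, 118 and 124 CPM in WT, at 114, 118 and 122 in E112K and at 204, 207 and 198 in the double mutant. WT and E112K libraries overlapped throughout, and all 3 double-mutant libraries lay far above both. It rose 1.71-fold against WT (adjusted p = 3.83e-10) and 1.72-fold against E112K (adjusted p = 6.37e-10). The gene SPCC16A11.03c, which overlaps utp13 on the opposite strand, did not pass in E112K. In the double mutant SPCC16A11.03c rose by 0.33 on the log2 scale against WT and by 0.25 against E112K. For utp18 the log2 fold change against WT was 0.41 in E112K and 0.63 in the double mutant, and both passed. The most abundant of the 3 per length in WT, utp6, was measured at 131, 119.6 and 120.5 CPM in WT, 105, 111.9 and 114 in E112K and 108, 106 and 109 in the double mutant. It was below every WT library in both mutants and fell by 0.16 and 0.20 on the log2 scale.

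Among the other 24 small-subunit factors, 17 were higher and 4 lower in E112K, 18 higher and 4 lower in the double mutant against WT, and 14 higher and 5 lower between the mutants. Transcripts of utp20, which encodes a very large HEAT-repeat protein of the processome, stood at 95.5, 87.4 and 93.8 CPM in WT, 120.4, 139 and 128 in E112K and 289, 315 and 302 in the double mutant. The 3 groups were fully separated, in that order. The rise was 1.40-fold in E112K (log2 fold change 0.49 ± 0.05, SE; adjusted p = 2.65e-06) and 3.27-fold in the double mutant (1.71 ± 0.05; adjusted p = 5.27e-12), and 2.34-fold between the mutants (adjusted p = 2.00e-10). This was the largest change of any member in the last 2 comparisons.

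The processome gene kri1, whose product binds the small-subunit factor Krr1 in budding yeast, stood at 89.1, 90.6 and 88.9 CPM in WT, 138, 155 and 148 in E112K and 182, 186 and 178 in the double mutant. Its groups were separated in the same order, with rises of 1.64-fold and 2.03-fold over WT (adjusted p = 3.81e-09 and 6.10e-11). For utp14, whose product activates a processome helicase in budding yeast, the libraries stood at 156, 154 and 161 CPM in WT, 261, 285 and 291 in E112K and 235, 236 and 232 in the double mutant. Here E112K was highest, 1.78-fold above WT, and the double mutant was 1.49-fold above WT and lower than E112K by 0.25 on the log2 scale (adjusted p = 4.94e-05). The gene SPAC57A7.07c overlaps utp14 on the opposite strand and fell by 0.64 in E112K. No source used here says whether counting used the strand, so reads of such pairs cannot be told apart.

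For other small-subunit factors the mutant strains stood apart. Transcripts of utp25, which encodes a U3-associated protein, stood at 81.6, 81.1 and 77.1 CPM in WT, 72.1, 74.8 and 80.7 in E112K and 141, 138 and 139 in the double mutant. WT and E112K overlapped, and the double mutant was 1.74-fold above WT and 1.83-fold above E112K (adjusted p = 1.08e-09 and 8.93e-10). Without library 3 of E112K, utp25 was also called lower in E112K than in WT, by 0.12 (adjusted p = 0.0163). The reverse order was seen for tsr1, a GTPase-like factor of late small-subunit particles, at 164, 167 and 168 CPM in WT, 214, 237 and 235 in E112K and 168, 173 and 165 in the double mutant. It was 1.37-fold higher in E112K (adjusted p = 1.97e-07), while WT and the double mutant overlapped, and it fell by 0.44 from E112K to the double mutant (adjusted p = 2.70e-07). The WD-repeat gene enp2 was measured at 131, 121 and 125 CPM in WT, 176, 199.9 and 199 in E112K and 138, 149 and 140.3 in the double mutant. All 3 groups were separated, with E112K highest, and enp2 was 1.52-fold up in E112K and 1.13-fold up in the double mutant.

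Falls in this class were smaller. The WD-repeat gene utp7 stood at 155, 153 and 151 CPM in WT, 109, 110.4 and 119 in E112K and 123, 124 and 127 in the double mutant. Both mutants lay below WT, by 0.44 and 0.30 on the log2 scale (adjusted p = 1.66e-07 and 4.43e-06). Its overlapping neighbour sec17, on the other strand, had log2 fold changes of -0.16 and 0.68. For tsr3, which encodes an enzyme that modifies the small-subunit rRNA, the libraries stood at 45.4, 47.8 and 46.3 CPM in WT, 38.5, 39.4 and 37.9 in E112K and 37.0, 39.2 and 32.7 in the double mutant. The mutants overlapped each other and lay below WT, by 0.27 and 0.36. Its antisense neighbour sro7 rose by 0.20 in E112K and did not pass in the double mutant against WT. The most abundant gene of the class per length in WT was tsr2, whose product escorts a ribosomal protein in budding yeast, at 99.8, 102 and 97.9 CPM in WT, 98.0, 95.7 and 98.0 in E112K and 93.6, 88.3 and 89.9 in the double mutant. The double mutant was lowest, 0.14 below WT, and its call against E112K was lost without library 2 of the double mutant (adjusted p = 0.088). The antisense neighbour of tsr2, saw1, rose by 0.59 and 0.24 against WT.

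**Figure D3:**
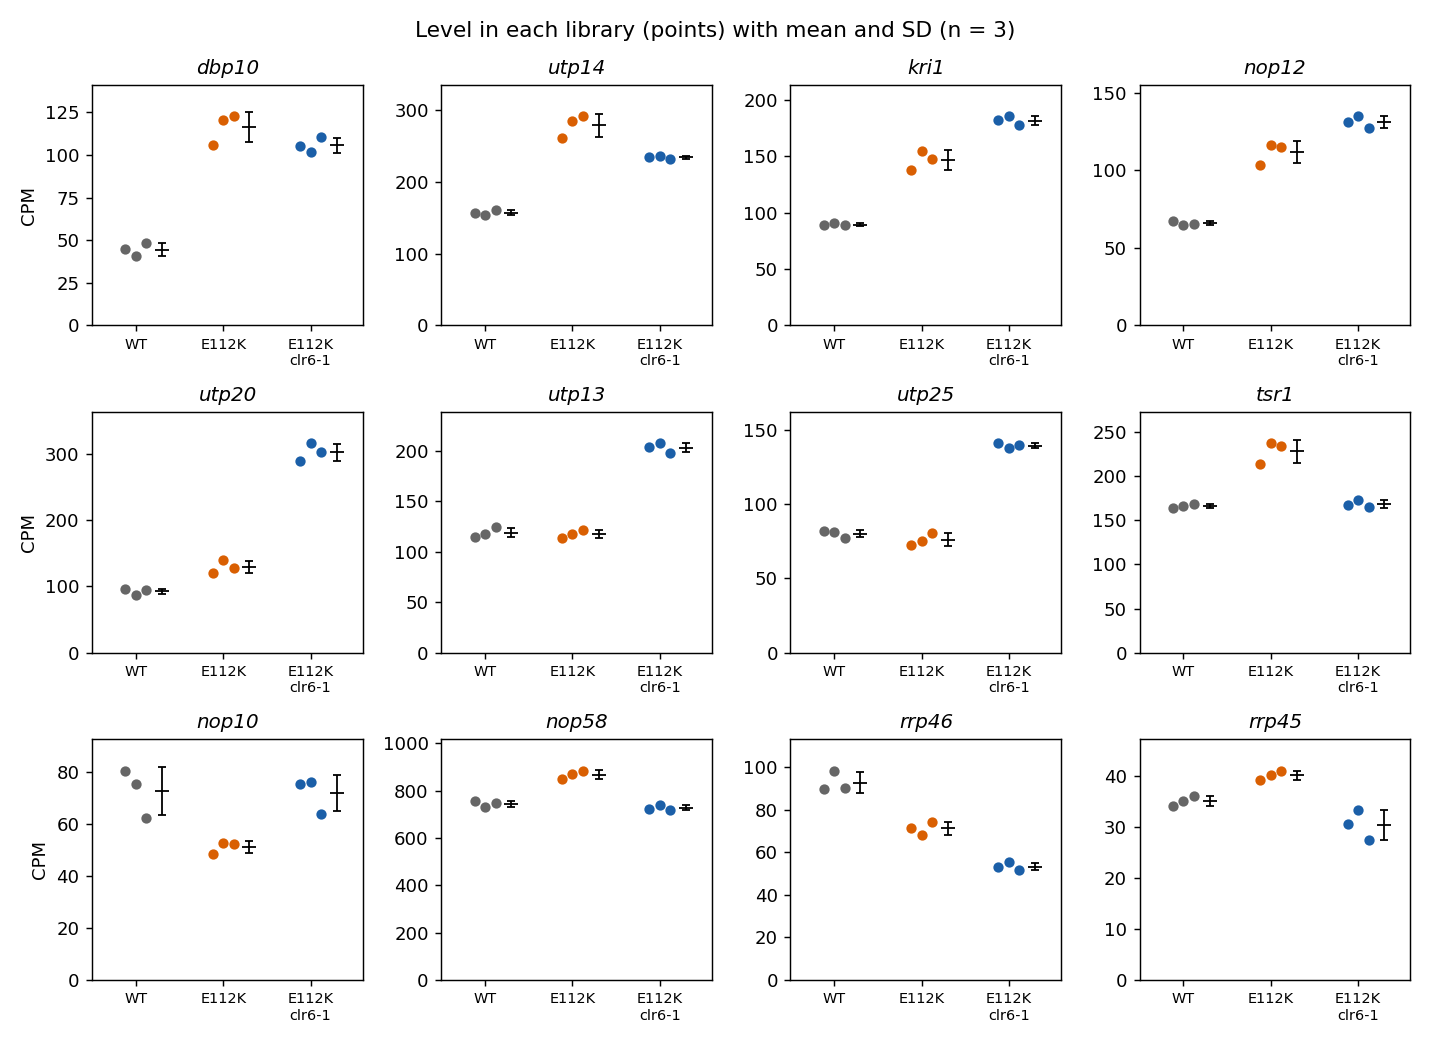
CPM of 12 members in each of the 9 libraries (points) with the mean and SD over 3 libraries beside them, every axis starting at 0. The double-mutant libraries of utp20, between 289 and 315 CPM, and those of utp13 and utp25 stand above both other groups, those of tsr1 and nop58 overlap WT while E112K is higher, and those of rrp46 are lowest.

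Among large-subunit factors, 11 of 23 were higher in E112K against WT (47.8%), 2 lower (8.7%) and 10 did not pass. Over all tested genes 37.6% were higher, 38.9% lower and 76.5% called in either direction. The median log2 fold change of the class was 0.10. In the double mutant against WT 17 were higher (73.9%) and 4 lower (17.4%), beside 41.7% and 42% of all tested genes, with a median of 0.31. Between the mutants 10 were higher (43.5%) and 4 lower (17.4%), beside 40.2% and 38.6%, with a median of 0.06. Of 25 other large-subunit factors tested, 14 were higher and 7 lower in E112K, 17 higher and 4 lower in the double mutant against WT, and 12 higher and 8 lower between the mutants. The smallest adjusted p among them belonged to ebp2 against WT, with rises of 0.86 and 0.64 (adjusted p = 4.76e-11 and 5.20e-10), and to grc3, a polynucleotide kinase of rRNA spacer processing, between the mutants, with a rise of 0.83 (adjusted p = 1.60e-09).

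The DEAD-box helicase gene dbp10 was the member that changed most in E112K. It stood at 44.6, 40.9 and 48.2 CPM in WT, 106, 120.4 and 123 in E112K and 105, 102 and 111 in the double mutant. Both mutant groups lay more than 2-fold above WT and overlapped each other. The rise was 2.62-fold in E112K (log2 fold change 1.39 ± 0.07, SE; adjusted p = 7.47e-10) and 2.37-fold in the double mutant (1.248 ± 0.07; adjusted p = 1.34e-09). The difference between the mutants, -0.14 on the log2 scale, did not pass (adjusted p = 0.0526) but passed in 6 of the other settings, among them without library 1 of E112K (0.00545) and without library 3 of the double mutant (0.0414). Its antisense neighbour atp25 did not pass against WT in either mutant.

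Transcripts of nop12, which encodes an RNA-binding protein of large-subunit rRNA processing, stood at 67.5, 64.7 and 65.6 CPM in WT, 104, 116 and 115 in E112K and 131, 135 and 127 in the double mutant. The groups were separated in that order, at 1.69-fold and 1.99-fold over WT (adjusted p = 7.55e-09 and 2.99e-10). The AAA ATPase gene rix7, whose budding yeast product strips an assembly factor from the particle, was measured at 43.6, 43.5 and 43.3 CPM in WT, 61.0, 68.3 and 65.6 in E112K and 78.9, 84.2 and 74.3 in the double mutant. It had the same order, with rises of 1.49-fold and 1.82-fold. The rRNA processing gene rrp16 stood at 105, 105 and 108 CPM in WT, 162, 169 and 180.4 in E112K and 171, 175 and 172 in the double mutant. Its mutant groups overlapped and were 1.62-fold and 1.63-fold above WT (adjusted p = 2.40e-09 and 1.21e-09). Its antisense neighbour sap145 fell by 0.27 and 0.31 against WT.

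The GTPase gene nog1 was measured at 360.0, 339.9 and 352 CPM in WT, 515, 578 and 569 in E112K and 529, 537 and 521 in the double mutant. The mutants overlapped and stood 1.58-fold and 1.51-fold above WT. Without library 1 of E112K, nog1 was also called lower in the double mutant than in E112K, by 0.11 (adjusted p = 0.00903). The helicase gene dbp7 stood at 67.7, 74.3 and 72.0 CPM in WT, 63.5, 72.0 and 68.5 in E112K and 110.4, 108 and 107 in the double mutant. WT and E112K overlapped, and the double mutant was 1.52-fold above WT and 1.59-fold above E112K (adjusted p = 8.61e-08 and 4.88e-08).

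The largest fall of the class was that of another helicase gene, dbp3, at 386, 362 and 368 CPM in WT, 284, 317 and 321 in E112K and 259, 272 and 249.7 in the double mutant. The 3 groups did not overlap, and dbp3 fell by 0.28 and 0.51 on the log2 scale against WT (adjusted p = 0.000149 and 3.51e-07). Its antisense neighbour npg1 did not pass in E112K and rose by 0.51 in the double mutant. The log2 fold changes of nop8 and nop4 against WT were -0.02 and 0.01 in E112K, where neither passed, and -0.34 and -0.12 in the double mutant, where both did.

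The 3 core snoRNP protein genes among the members differed in direction in E112K against WT, with 1 higher and 2 lower. In the double mutant against WT only nop56 passed, and it was lower. Transcripts of nop10, which encodes a small protein of the box H/ACA core, stood at 80.6, 75.3 and 62.3 CPM in WT, 48.4, 52.6 and 52.5 in E112K and 75.6, 76.2 and 64.0 in the double mutant. E112K lay below both other groups, which overlapped. The fall in E112K was 0.51 on the log2 scale (SE 0.09; adjusted p = 0.000202), the largest of any member there, and nop10 was 1.41-fold higher in the double mutant than in E112K (adjusted p = 0.000262). Of the box C/D core, nop58 was measured at 755, 729 and 748 CPM in WT, 848, 869.7 and 885 in E112K and 723, 742 and 720.0 in the double mutant. It was raised 1.17-fold in E112K and overlapped WT in the double mutant. Its partner nop56 stood at 696, 698 and 727 CPM in WT, 596, 672 and 649.9 in E112K and 609.5, 627 and 609.7 in the double mutant, below WT in both. Without library 1 of E112K, nop56 was also called lower in the double mutant than in E112K, by 0.10 (adjusted p = 0.0213).

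Against WT, 8 of 8 further snoRNP proteins and assembly factors that are not members were lower in E112K and 7 in the double mutant. These counts stand beside 38.9% and 42% of all tested genes called lower, and none of the 8 was higher. Between the mutants 2 were higher and 3 lower. The smallest adjusted p was that of snu13, a C/D core protein gene, in E112K, where it fell by 0.34 (adjusted p = 5.22e-06), and that of shq1, an H/ACA assembly factor gene, in the double mutant, where it fell by 0.44 against WT and by 0.23 against E112K (adjusted p = 3.11e-07 and 0.000214).

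The exosome subunits were called in both directions, as were all tested genes. In E112K against WT, 4 of 8 were higher and 3 lower, beside 37.6% and 38.9% of all tested genes. In the double mutant against WT 3 were higher and 4 lower, beside 41.7% and 42%. Between the mutants 3 were higher and 2 lower, beside 40.2% and 38.6%. The nuclear exonuclease gene rrp6 rose by 0.48 and 0.76 on the log2 scale (adjusted p = 4.46e-08 and 2.72e-10). For rrp42, a ring subunit and the most abundant of the class per length, the libraries stood at 154, 157 and 148 CPM in WT, 177, 174 and 188 in E112K and 225, 229.9 and 221 in the double mutant. The groups were separated in that order, and rrp42 rose 1.18-fold and 1.47-fold. On the opposite strand it overlaps bag101, which was lower in E112K by 0.31 and had no counts in the double mutant, and top3, which rose by 0.42 in the double mutant.

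Transcripts of rrp46, another ring subunit gene, stood at 89.997, 98.5 and 90.1 CPM in WT, 71.5, 68.2 and 74.2 in E112K and 52.9, 55.3 and 51.7 in the double mutant. The 3 groups were separated, and the fall was 0.38 and 0.80 on the log2 scale (adjusted p = 1.28e-05 and 7.34e-09), with 0.42 between the mutants. The gene nde1 overlaps rrp46 on the same strand, so strand could not tell reads of this pair apart. It rose by 0.15 in E112K and did not pass in either comparison of the double mutant. The cap subunit gene rrp4 stood at 92.7, 94.4 and 97.9 CPM in WT, 68.5, 67.6 and 68.5 in E112K and 73.4, 68.4 and 68.6 in the double mutant. Its mutant libraries overlapped and lay below WT by 0.48 and 0.44. The ring subunit gene rrp43 was measured at 86.4, 83.8 and 73.6 CPM in WT, 58.3, 59.0 and 60.01 in E112K and 64.6, 67.1 and 60.1 in the double mutant. Both mutants were lower than WT, by 0.46 and 0.35, and its antisense neighbour dph2 rose by 0.41 and 0.93. Without library 3 of the double mutant, rrp43 was called higher in the double mutant than in E112K, by 0.16 (adjusted p = 0.0497).

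Another ring subunit gene, rrp45, stood at 34.2, 35.2 and 36.0 CPM in WT, 39.3, 40.2 and 41.1 in E112K and 30.5, 33.3 and 27.4 in the double mutant. E112K was highest and the double mutant lowest, with no overlap. The log2 fold changes were 0.20 and -0.21 against WT (adjusted p = 0.0145 and 0.0113) and -0.40 between the mutants (adjusted p = 9.52e-05). The first call was lost without library 3 of E112K (adjusted p = 0.0513) or library 1 of WT (0.0529), and the second without library 3 of the double mutant (0.0547). The antisense neighbour of rrp45, rnc1, did not pass in E112K and fell by 0.15 in the double mutant against WT.

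Factors of both subunits or of no single assignment were higher against WT in both mutants, 3 of 3 each time. Over all tested genes 37.6% were higher in E112K and 41.7% in the double mutant. The log2 fold changes of rrp5, which joins early cleavage steps of both subunits, were 0.61 and 0.65 (adjusted p = 9.23e-08 and 3.42e-08), and those of rrp12, an export factor, 0.41 and 0.33. The helicase gene dbp2, which also acts on mRNA, stood at 571, 549.8 and 543 CPM in WT, 670.0, 739.6 and 759 in E112K and 663, 727 and 704 in the double mutant. Its mutant libraries overlapped each other and lay above WT, 1.30-fold and 1.26-fold. None of the 3 passed between the mutants in the fit of all libraries, and dbp2 was called lower in the double mutant than in E112K, by 0.10, when library 1 of E112K was left out (adjusted p = 0.0467).

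Other genes of ribosome production were read beside the members. Of 136 cytosolic ribosomal protein genes, 1 was higher and 117 lower in E112K against WT, beside 37.6% and 38.9% of all tested genes. The median log2 fold change of the ribosomal protein genes was -0.32. In the double mutant against WT 7 were higher and 94 lower, beside 41.7% and 42%, with a median of -0.17. Between the mutants 74 were higher and 6 lower, beside 40.2% and 38.6%, with a median of 0.12. These genes took 11.2 to 11.4% of the counts of WT libraries, 8.69 to 9.07% of those of E112K libraries and 9.38 to 9.88% of those of double-mutant libraries. The gene with the smallest adjusted p was rpl1603 in E112K, where it fell by 1.87 (adjusted p = 2.02e-11), and between the mutants, where it rose by 1.97 (adjusted p = 2.21e-11). Against WT in the double mutant it was rpl102, which fell by 0.83 (adjusted p = 2.67e-10). Many of these genes have near-identical copies, so that values of single copies are uncertain. The members' medians in these comparisons were 0.21, 0.30 and 0.08. The 19 RNA polymerase I and rDNA factors had 7 higher and 8 lower in E112K, 9 higher and 9 lower in the double mutant against WT, and 5 higher and 7 lower between the mutants. By smallest adjusted p, the polymerase subunit gene rpa43 led in E112K and fell by 0.99 (adjusted p = 3.53e-10), gar2, a nucleolin-like gene, led in the double mutant against WT and rose by 0.77 (adjusted p = 1.31e-09), and the initiation factor gene rrn3 led between the mutants and fell by 0.49 (adjusted p = 7.50e-09).

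**Figure D4:**
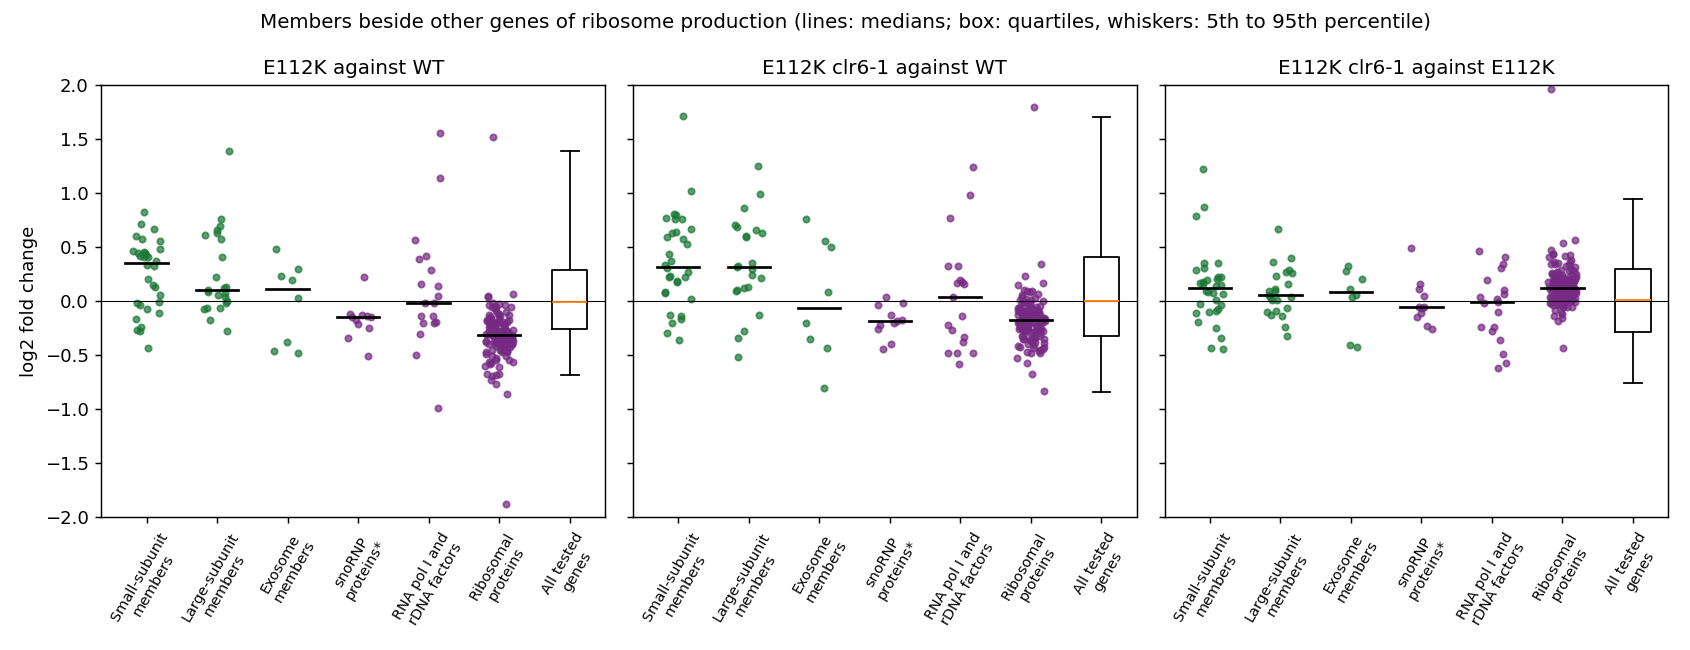
Log2 fold change of each gene in the 3 comparisons for members of 3 roles (green), other lists (purple) and all 5119 tested genes (box). The snoRNP group, marked with an asterisk, holds the 3 member core proteins and the 8 further proteins. The median line of ribosomal protein genes lies at -0.32, -0.17 and 0.12, and that of small-subunit members at 0.35, 0.32 and 0.12.

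Gene structure was read from the RefSeq annotation. There 26 members lie on chromosome I, 33 on II and 10 on III, and 32 (46.4%) have no intron, beside 51.7% of all measured genes. The median transcript was 1876 bases long, beside 1682 for all measured genes. The transcript lengths implied by the deposited counts and FPKM lay within 10% of the reference for 64 of the 69. All 7 members over 3000 bases, which are utp20, rrp5, nop2, utp10, rrp12, utp22 and bms1, were higher in E112K and in the double mutant against WT. Of the 24 members under 1500 bases, 9 were higher and 7 lower in E112K and 13 higher and 7 lower in the double mutant. Of all tested genes under 1500 bases, 710 of 2129 were higher and 867 lower in E112K, and 776 higher and 976 lower in the double mutant. Of those over 3000 bases, 359 of 778 were higher and 240 lower in E112K, and 426 higher and 232 lower in the double mutant. An opposite-strand coding gene overlapped 26 members (37.7%), beside 37.6% of all measured genes. Among the 42 members that overlap no other measured gene, 25 were higher and 7 lower in E112K, 30 and 6 in the double mutant against WT, and 22 and 5 between the mutants. The shares of all tested genes in these comparisons were 37.6% and 38.9%, 41.7% and 42%, and 40.2% and 38.6%. All genes without an overlap were not counted apart.

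The boxes of ribosomal protein promoters were rare in promoter windows of the members, as they were in the windows of all genes. Windows of 250 bases before to 50 after each annotated start were searched on both strands for HomolD (CAGTCACA) and HomolE (CCCTACCCT), the boxes known from fission yeast ribosomal protein promoters, and for PAC (GATGAG) and RRPE (AAAATTTT), known from budding yeast ribosome biogenesis promoters. HomolD was in none of the 69 members' windows, in 87 of 136 ribosomal protein genes (64.0%) and in 2.68% of all 5108 windows. Its core CAGTCAC, which lacks the last letter of HomolD and was chosen after those counts were seen, was in 2 members, nog1 and nop10, in 124 ribosomal protein genes (91.2%) and in 4.72% of all windows. HomolE was in none of the members, in 48 ribosomal protein genes (35.3%) and in 1.53% of all windows. PAC was in 6 members (8.70%), close to the 8.57% of all windows, and RRPE in 8 (11.6%), beside 7.79%. The word AAATTT, which lies within RRPE and was picked after all six-letter words had been counted, was in 49 members (71.0%), beside 44.9% of all windows and 34.6% of ribosomal protein genes. The members' windows held a median of 68.3% A and T, beside 67.0% for all and 64.7% for ribosomal protein genes. Of the ribosomal protein genes, 75 of 87 with the HomolD box and 42 of 49 without it were lower in E112K.

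**Figure D5:**
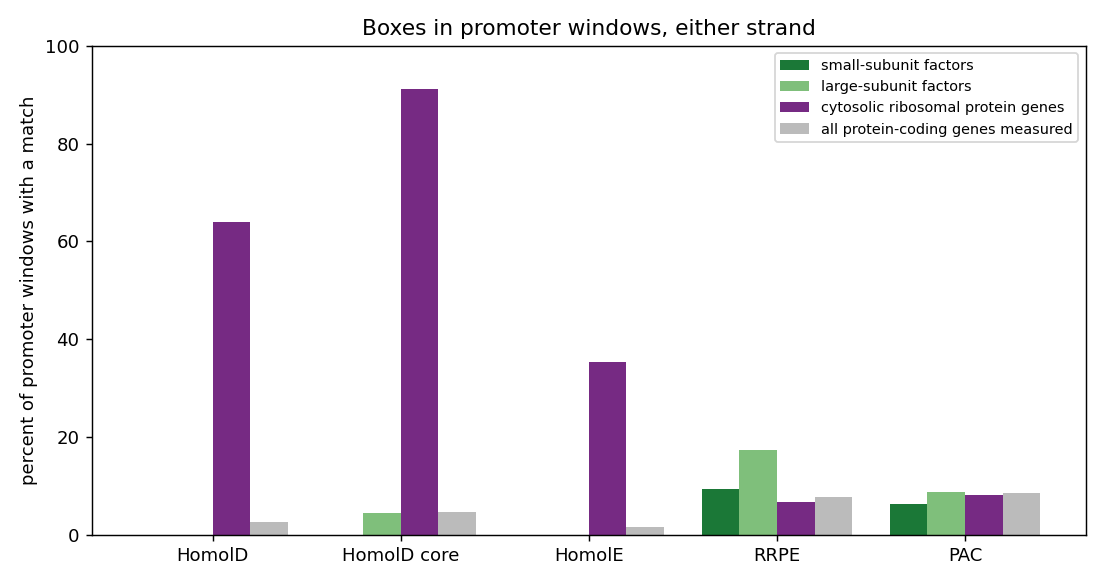
Percent of promoter windows that hold each box on either strand, for small-subunit and large-subunit members (greens), ribosomal protein genes (purple) and all measured protein-coding genes (grey). The HomolD core reaches 91.2% of ribosomal protein genes, and RRPE and PAC stay under 20% in every set.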

How the data were processed

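The 9 libraries were grouped by the genotype in the labels. Bowtie2, DESeq2, HISAT2, RSEM, StringTie and fastp are named in the submitters' processing notes with neither version nor role. Strand, annotation and genome build were not given in the sources used here. The deposited values are, per the file headers, counts for each gene in each library, all whole, and may be rounded estimates if RSEM made them. The authors also deposited FPKM per gene and library, used here for levels per length. The authors' deposited log2 fold changes and their p-value and FDR columns were used only to count members in their table. FPKM of the members was proportional to counts over depth within 0.0802% in every library.

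Counts of all 9 libraries were fitted with edgeR 4.0.16 (quasi-likelihood test, TMM factors from 0.987 to 1.025, filterByExpr) in R 4.3.3, with 3 contrasts. A gene was called at an adjusted p under 0.05 (Benjamini-Hochberg over 5119 genes). The biological coefficient of variation was 0.0389. The fit was checked on simulated data. Alternatives were other scalings, no filter, DESeq2 1.42.0, a replicate block, a fold threshold, the 6 libraries compared and each library left out. No library repeated another, since chi-square over its degrees of freedom was 2.96 to 9.67 between replicates.

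The members, the roles and the other gene lists were chosen with earlier results of these data known. Library values are given for the 5 largest rises and 5 largest falls per comparison among called members whose groups do not overlap. They are also given for the snoRNP core and for the most abundant member of each role by mean FPKM over the 9 libraries. Each other list is given with the gene of smallest adjusted p in each comparison. Other members are named by role. The symbols dim1, rki1, drs1, lsg1, rpp1, rpp21 and rpp40 were dropped from the lists because the deposited descriptions name other proteins. Gene structure and upstream DNA come from the RefSeq annotation of ASM294v3, matched by gene identifier for all 69 members. Python 3.11.15 and pandas 2.3.3 were used for these steps.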

Additional observations from a re-analysis of the deposited data

How the results depend on the processing

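No call of a named member, nor a members' median, changed direction under any alternative run, while values that did not pass, such as those of utp13 in E112K, crossed 0. Of the members' calls, 48 of 53 in E112K against WT, 59 of 62 in E112K clr6-1 against WT and 39 of 45 between the mutants held under every other scaling, filter, test and left-out library. A fold threshold of 0.32 on the log2 scale lowered the counts by its construction. In E112K against WT it left 2125 genes, 8 large-subunit factors and 5 members called lower. In E112K clr6-1 against WT it left 2740 genes, 17 small-subunit factors, 13 large-subunit factors and 6 members called lower. Between the mutants it left 2309 genes, 8 small-subunit and 4 large-subunit factors, 10 members higher and 6 lower. With library totals alone or upper-quartile factors, the members' median in E112K clr6-1 against WT was 0.2739 or 0.2763 on the log2 scale. Other scalings moved the median of all genes by at most 0.0311. Only the 42 members without an overlapping measured gene, an alternative chosen after seeing the data, gave 25 higher and 7 lower, 30 and 6, and 22 and 5 in the 3 comparisons, with fewer members counted by construction. The shares of all tested genes stand beside these counts in the paragraph on gene structure.

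Leaving out each library in turn gave 37 to 42 members higher and 11 to 15 lower in E112K against WT, 45 to 49 and 14 to 15 in E112K clr6-1 against WT, and 28 to 33 and 13 to 20 between the mutants. Libraries with the same replicate number correlated between -0.172 and 0.184 in their deviations, and those with different numbers between -0.235 and 0.261. With 3 libraries a group, these values cannot settle whether the numbers pair the samples. The fit with the replicate number as a block called 40 members higher and 12 lower, 47 and 15, and 30 and 14, and 3876, 4267 and 4015 genes in all. DESeq2 called 40 and 12, 46 and 15, and 29 and 14 members. The smallest library held 16469576 counts and the lowest member value was 302 counts, so that counting error weighs most on the members of low count.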
